A study of Mus musculus with 81 samples.

Results

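Serine palmitoyltransferase (SPT) makes the first intermediate of every sphingolipid, and the lipins turn phosphatidate into diacylglycerol. Transcript levels of 9 genes of these steps were followed in macrophages of wild-type (WT) mice and of mice with a conditional knockout (cKO) of the genes for histone H3.3. They were Sptssa, Sptlc1, Sptlc2, Ormdl1, Ormdl2, Ormdl3 and Kdsr of sphingolipid synthesis, and the lipin genes Lpin1 and Lpin2, taken by symbol from 54079 genes listed for every library. All 9 passed the filter on low counts in each of 5 experiments. The genes were chosen on the cKO against WT values of days 3, 5, 7 and 8, where Sptssa was low in cKO cells and Lpin1 was low on the later days. Those values are therefore a description without a test, and tests are given for the other libraries and contrasts.

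The mice were C57BL/6, and bone marrow came from animals aged 8 to 10 weeks. WT cells carried floxed alleles of the genes that encode H3.3 (H3f3a fl/fl H3f3b fl/fl), and cKO cells carried LysM cre/cre in addition, which gives Cre recombinase in myeloid cells. Cre sits in the lysozyme gene Lyz2, so the H3.3 deletion and the loss of Lyz2 transcript came together in every comparison of genotypes and cannot be told apart. Bone marrow was grown into bone marrow-derived macrophages (BMDMs) with L929-conditioned medium as the source of M-CSF, the growth factor of macrophages. The experiments were a time course of days 3, 5 and 7, day 8 BMDMs without or with interferon-γ (IFNγ) for 12 h, and peritoneal macrophages taken from the abdominal cavity. BMDMs were also grown without antibody, with a control antibody or with an antibody that blocks IFNAR1, a subunit of the type I interferon receptor. The last experiment held 3 sets of WT and cKO BMDMs (numbered here 1 to 3) and the double KOs H3.3cKO:StingKO, H3.3cKO:MavsKO and H3.3cKO:Irf7KO. Each group had 3 biological replicates, except 2 in the cKO groups of day 8, where 2 further libraries could not be placed because title and library name disagreed on IFNγ. Of 81 libraries, 79 were placed.

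SPT joins serine to palmitoyl-CoA in the endoplasmic reticulum. Its core is a pair of long-chain base subunits, SPTLC1 and SPTLC2, to which the small subunit SSSPTA, the product of Sptssa, adds most of the activity. ORMDL proteins bind the complex and hold it back when ceramide is plentiful, and KDSR reduces the product to sphinganine. Lipins hydrolyse phosphatidate at the endoplasmic reticulum and feed triglyceride and phospholipid synthesis, and lipin 1 also acts as a transcriptional coregulator. In macrophages, lipin 2 is known for restraining inflammatory signalling, and people who lack it develop an autoinflammatory bone disease.

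Libraries held from 3614967 counts on genes (cKO day 8 IFNγ replicate 1, in which 57.1% of reads were unmapped) to 45581528. H3f3a was called lower in cKO cells in 8 of 8 tested comparisons, by log2 fold changes of -3.62 to -2.35, and Lyz2 in 8 of 8. H3f3b was called lower in 3 of 8, the arms of the antibody experiment (-3.11 to -2.93), and lay between -0.41 and -0.16 in the other 5. The interferon-induced gene Ifi44 was called higher in 6 of 8. The 6 macrophage markers summed to between 2491 and 7446 CPM (TMM-scaled counts-per-million) in BMDMs and to between 9199.7 and 11324 in peritoneal macrophages. Markers of large peritoneal macrophages summed to 3556 to 4330 CPM in peritoneal libraries and to at most 34.6 in BMDMs. In the antibody experiment 5 libraries stood apart on the first principal component of all genes other than the 9, which held 44.6% of the variance. They were WT no antibody replicates 2 and 3, WT IFNAR1 antibody replicates 1 and 2, and cKO IFNAR1 antibody replicate 1. Results of that experiment are given with and without them. In bulk RNA, fewer cells of a type and less RNA per cell cannot be told apart.

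Sptssa and Lpin1 are the genes on which most of the comparisons below turn, so the bases just upstream of each annotated start are shown as RefSeq gives them (mouse build GRCm38.p6, minus strand, 5′ to 3′). Capitals mark the GC box GGGCGG and the CCAAT box, on either strand.
Sptssa, chr12:54656574-54656822: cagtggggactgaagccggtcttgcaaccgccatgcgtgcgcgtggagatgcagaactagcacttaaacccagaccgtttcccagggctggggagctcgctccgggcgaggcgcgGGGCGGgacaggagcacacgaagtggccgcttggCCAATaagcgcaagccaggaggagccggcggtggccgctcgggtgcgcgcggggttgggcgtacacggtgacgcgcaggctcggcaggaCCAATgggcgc
Lpin1, chr12:16610968-16611216: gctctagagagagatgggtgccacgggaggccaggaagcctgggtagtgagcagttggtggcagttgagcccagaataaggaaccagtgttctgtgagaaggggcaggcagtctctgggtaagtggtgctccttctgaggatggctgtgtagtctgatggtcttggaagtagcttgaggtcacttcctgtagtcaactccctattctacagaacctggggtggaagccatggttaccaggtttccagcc
The stretch before Sptssa was 69.1% G or C, with 28 CpG dinucleotides, and that before Lpin1 was 54.6% G or C with 1 CpG. The median over 32851 RefSeq promoters of this length was 52.2% G or C. The Sptssa stretch held 1 GC box and 2 CCAAT boxes, motifs found in 32.6% and 33.8% of all promoters, and the Lpin1 stretch held neither. On either strand, none of CACGTG (an E-box, in 6% of promoters), TATAAA (12.4%), GAAA and GAAA spaced by any 2 bases (bound by interferon regulatory factors, 2.96%), TTCNNNGAA (the gamma-activated site, 7%) or TCACCCCAC (a sterol response element, 0.49%) occurred before either gene. Among the other members, Lpin2 held 1 E-box and Kdsr held 1 TTCNNNGAA. These are matches of letters and say nothing of binding.

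Levels can be compared between genes only per length, and here they are CPM per kilobase of exon (RPKM). Sptssa was the highest of the 9 in 12 of 12 WT group means, which ran from 34.3 to 107 RPKM with a median of 47.6. The catalytic pair followed at about the same level, with medians of 14.5 RPKM for Sptlc1 and 13.3 for Sptlc2 and ranges of 8.75 to 18.3 and 9.90 to 18.3, which overlap. Lpin2 (median 9.11), Ormdl3 (8.67) and Ormdl2 (7.52) came next with overlapping ranges. Of the exon bases of Ormdl2, 66.7% overlap another gene, where ambiguous reads were left out, while its full length was used. Its RPKM can therefore be too low, and its rank among the 9 is uncertain. Lpin1 (3.45), Ormdl1 (3.07) and Kdsr (3.01) were lowest. Lpin1 spanned the widest relative range of the 9, from 0.533 RPKM in WT day 8 IFNγ cells to 8.88 in WT IFNAR1 antibody cells, and was the lowest member in 5 of the 12 groups. Of the RPKM of both lipins, Lpin1 made up 9.995% ± 0.272 (SD, n = 3) in WT cells of day 3 and 54.8% ± 16 in WT peritoneal macrophages.

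**Figure D1:**
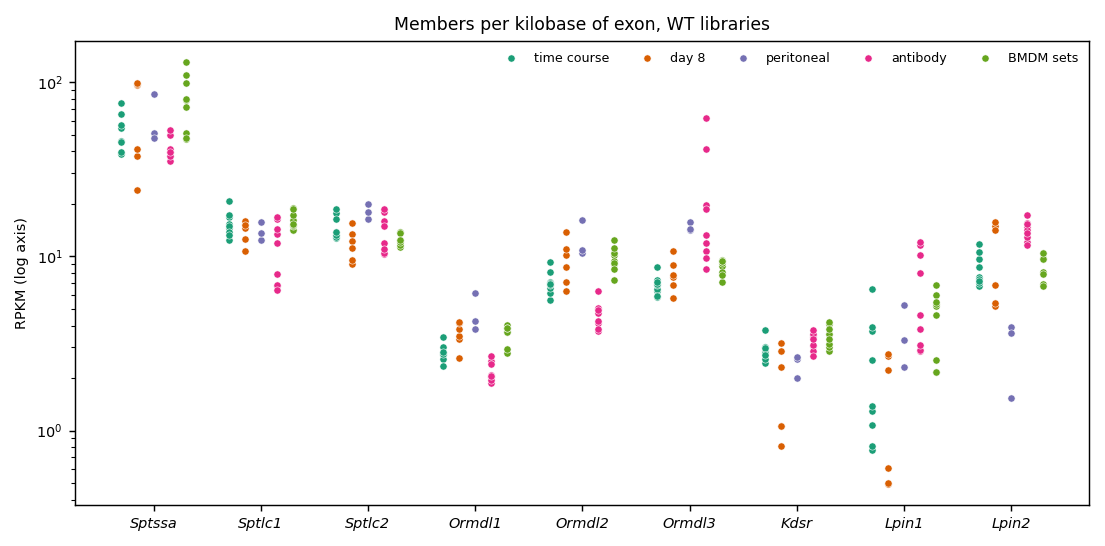
RPKM of the 9 genes (log axis) in every WT library, one point a library, coloured by experiment. Sptssa has the highest group mean in all 12 WT groups, while single libraries can differ (Ormdl3 reached 62.6 RPKM in WT IFNAR1 antibody replicate 2 and Sptssa 52.9), and Lpin1 covers the widest range on this axis, from 0.533 to 8.88 RPKM as group means.

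Sptssa, the small subunit gene (chr12:54645392-54656573, minus strand, GRCm38; 5.27% of its exon bases are shared with the microRNA gene Mir1892), was lower in cKO than in WT cells on every day described. On day 3 the WT libraries held 70.02, 59.6 and 58.6 CPM and the cKO libraries 32.9, 33.7 and 38.2. On day 5 the values were 82.4, 69.2 and 60.4 CPM in WT and 38.9, 50.1 and 47.9 in cKO cells, and on day 7 they were 86.6, 115 and 99.7 against 45.3, 60.7 and 61.4. On day 8 the WT libraries held 146, 147 and 150.3 CPM and the cKO libraries 97.7 and 98.3. The genotypes did not overlap on any of these days. The log2 fold changes were -0.84 (SE 0.155) on day 3, -0.63 (SE 0.154) on day 5, -0.85 (SE 0.154) on day 7 and -0.60 (SE 0.215) on day 8, that is 55.7%, 64.6%, 55.5% and 66.1% of the WT level. The day 7 level exceeded the day 3 level by 0.68 on the log2 scale in each genotype, and the fold change of day 7 minus that of day 3 was -0.00 (SE 0.22). Of all 15955 genes fitted, 15.8% on day 3, 11.1% on day 5 and 7.09% on day 7 lay lower in cKO cells without overlap, and 13.8% of 13075 did so on day 8, and nothing is read from these shares because the days chose the gene.

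In the libraries that the choice did not use, Sptssa was called lower in cKO cells in 5 of 8 comparisons and lay below WT in all 8. The 8 are not independent, since the antibody arms came from 1 experiment and 1 model, as did the sets. This holds for every count out of 8 given here. In BMDM set 1 the WT libraries held 119, 149 and 109 CPM and the cKO libraries 62.4, 64.4 and 51.2. Set 2 held 77.4, 71.1 and 72.1 against 47.7, 56.8 and 44.9 CPM, and set 3 held 121, 198 and 166 against 64.6, 73.3 and 69.7 CPM. No cKO library of the sets reached its set's lowest WT library. The fold changes were -1.09 (SE 0.135, adjusted p = 1.12e-06), -0.56 (SE 0.134, adjusted p = 0.00308) and -1.23 (SE 0.134, adjusted p = 1.8e-07). These and all adjusted p values below are from the quasi-likelihood test of edgeR with Benjamini-Hochberg adjustment over all genes. Of all genes, 16.7%, 11.8% and 18.8% were called lower in sets 1, 2 and 3, and 20.1%, 24.5% and 22.4% lay lower without overlap. The same-numbered WT libraries of sets 1 and 3 deviated from their group means together (r = 0.143 to 0.386 across genes), and whether these sets are independent was not tested.

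The arms of the antibody experiment without antibody and with control antibody also gave calls. Without antibody the WT libraries held 62.9, 56.8 and 60.0 CPM of Sptssa and the cKO libraries 40.2, 45.0 and 35.2 (-0.58, SE 0.15, adjusted p = 0.0281). With control antibody they held 60.0, 60.1 and 53.5 against 35.5, 36.1 and 33.3 CPM (-0.73, SE 0.153, adjusted p = 0.0103). The genotypes did not overlap in either arm, against 19.2% and 18.5% of all genes that lay lower in cKO cells without overlap, and 4.15% and 1.68% of all genes were called lower there. The call without antibody was lost on leaving out WT replicate 2 or 3 or cKO replicate 1 or 3 (adjusted p = 0.072, 0.0916, 0.0907 and 0.128). The call with control antibody was lost without WT replicate 1 or 2 or cKO replicate 3 (adjusted p = 0.0507, 0.0555 and 0.0524). Without the 5 libraries that stood apart the call with control antibody held (-0.73, adjusted p = 0.000385). Without antibody the fold change was then -0.66, with WT replicate 1 as the only WT library left.

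The remaining comparisons missed the threshold. With IFNAR1 antibody the WT libraries held 75.3, 80.2 and 57.1 CPM of Sptssa and the cKO libraries 61.4, 52.8 and 41.7 (-0.45, SE 0.15, adjusted p = 0.241), and a call was made only without WT replicate 3 (adjusted p = 0.0394). In day 8 cells given IFNγ the WT libraries held 57.4, 36.3 and 62.4 CPM and the cKO libraries 34.5 and 27, which did not overlap, like 19% of all genes (-0.76, SE 0.222, adjusted p = 0.0742). That comparison was called by DESeq2 (adjusted p = 0.0291), without WT IFNγ replicate 2 (0.0262) and without cKO IFNγ replicate 1 (0.0426). Placing the 2 conflicting libraries by their library names also gave a call (adjusted p = 0.0164), and placing them by their titles gave a log2 fold change of 0.03. Peritoneal macrophages held 129.9, 77 and 72.3 CPM in WT and 56.8, 74.2 and 82.3 in cKO mice, which overlapped (-0.39, SE 0.253, adjusted p = 0.732).

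**Figure D2:**
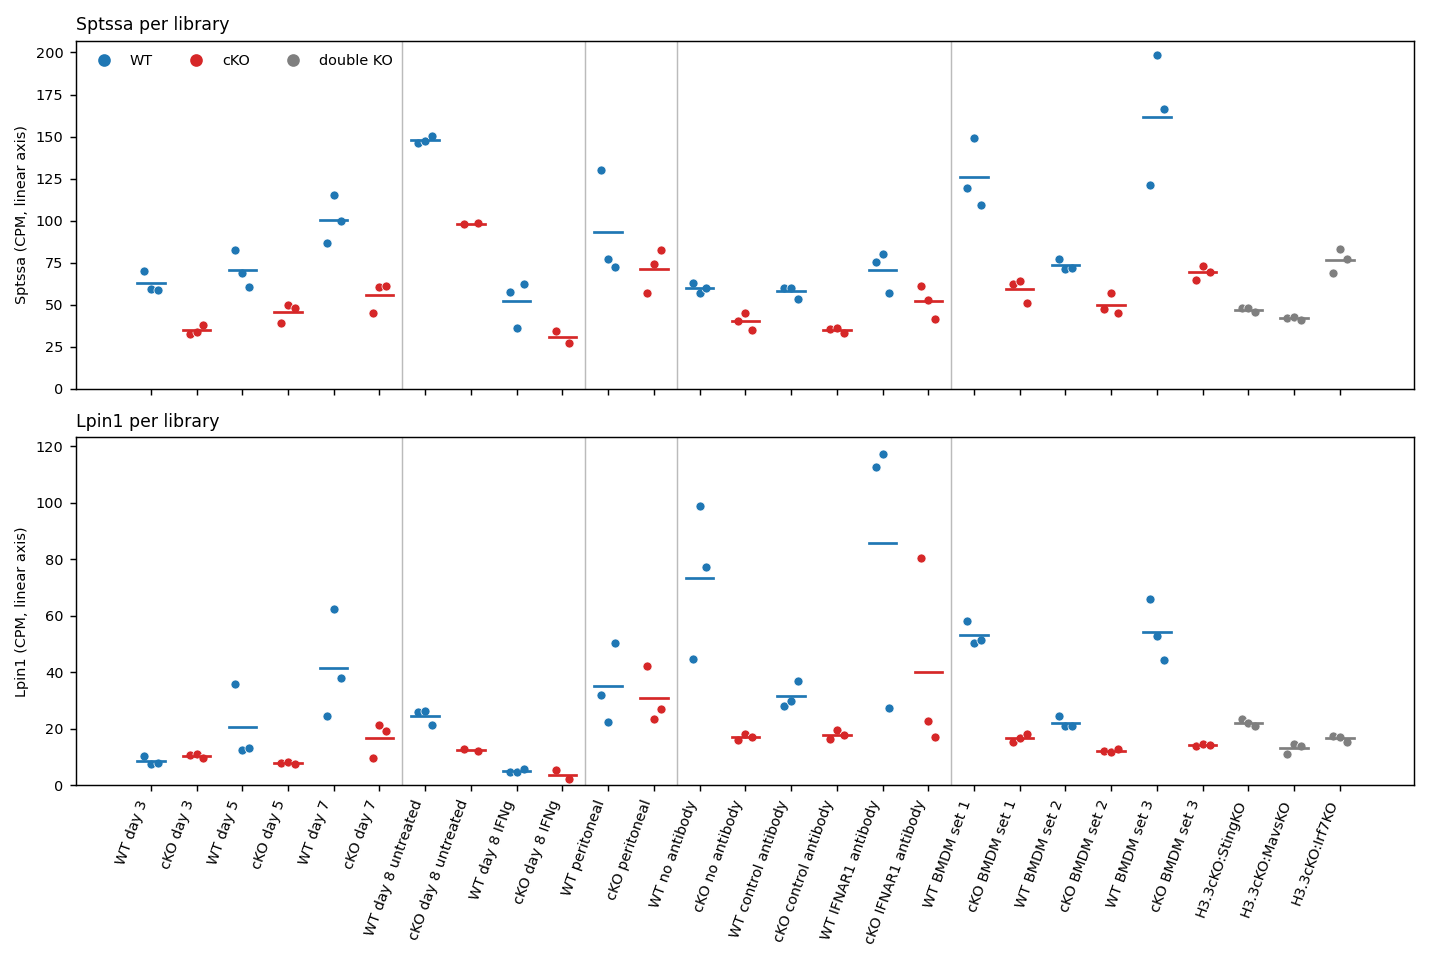
CPM of Sptssa (top) and Lpin1 (bottom) in every placed library, with a bar at each group mean and grey lines between experiments, on linear axes. Red cKO points lie under the blue WT points of their set in the BMDM sets for both genes, while the peritoneal groups overlap.

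The catalytic subunit genes did not follow Sptssa. Sptlc1 (chr13:53332748-53377397, minus strand) was called in 0 of 8 cKO against WT comparisons. Its fold changes in the sets were 0.02, -0.14 and 0.01 (SE 0.0593, 0.0584 and 0.059), with 50.6 to 66.9 CPM in the 9 WT libraries and 51.9 to 60.0 in the 9 cKO libraries. Both catalytic subunit genes lay higher without overlap in cKO cells with IFNγ and without antibody, as did 15.5% and 20.2% of all genes. Sptlc2 (chr12:87305058-87388355, minus strand) was called higher in cKO cells in the 3 sets and in no other comparison. The WT libraries of set 1 held 112, 100.6 and 100.2 CPM and the cKO libraries 127, 129 and 134, those of set 2 held 91.2, 94.2 and 98.3 against 131, 116 and 131, and those of set 3 held 113, 110.1 and 101 against 123, 128 and 134. The lowest cKO library of the sets (116 CPM) lay above the highest WT library (113). The fold changes were 0.32 (SE 0.0689, adjusted p = 0.000804), 0.42 (SE 0.0686, adjusted p = 6.95e-05) and 0.25 (SE 0.0687, adjusted p = 0.00543), where 17.9%, 10.1% and 17.1% of all genes were called higher and 21.3%, 20% and 20.8% lay higher without overlap. The fold change of Sptlc2 was above 0 in all 8 tested comparisons, from 0.02 in peritoneal macrophages to 0.48 without antibody. As a description, it was 0.13, 0.45, 0.38 and 0.35 on days 3, 5, 7 and 8.

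The balance of Sptssa to Sptlc1 can be read as a ratio of RPKM within a library, which shows unequal change and not which gene moved. On day 7 it was 4.77 ± 0.851 in WT and 2.49 ± 0.523 in cKO cells (SD, n = 3 each). In set 1 it was 5.63 ± 1.24 against 2.60 ± 0.339, in set 2 it was 2.66 ± 0.260 against 1.97 ± 0.220, and in set 3 it was 7.04 ± 1.66 against 3.0 ± 0.0852. The highest cKO library lay under the lowest WT library in each set (2.86 against 4.44, 2.22 against 2.49 and 3.09 against 5.33).

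Among the inhibitory subunits, Ormdl1 (chr1:53297095-53310309, plus strand; 8.72% of exon bases shared with the gene Gm28778) and Ormdl2 (chr10:128817902-128821645, minus strand) were each called in 1 of 8 comparisons. In set 2, Ormdl1 held 19.1, 17.6 and 17.4 CPM in WT and 14.8, 14.6 and 12.9 in cKO libraries (-0.35, SE 0.12, adjusted p = 0.0356), and the call was lost on leaving out any 1 of the 6 libraries (adjusted p from 0.0545 to 0.154). Ormdl2 held 17.4, 15.8 and 15.3 against 12.9, 12.9 and 10.6 CPM there (-0.41, SE 0.131, adjusted p = 0.0247), and the call was lost without WT replicate 1 (0.11) or cKO replicate 3 (0.141). In sets 1 and 3 the fold changes were -0.22 and -0.23 for Ormdl1 and -0.32 and -0.30 for Ormdl2, not called. Of the exon bases of Ormdl2, 66.7% overlap Dnajc14 on the other strand, and the counts do not keep strand, so its values are uncertain. Ormdl3 (chr11:98581256-98587368, minus strand) was called in 0 of 8, with fold changes from -0.11 to -0.05 in the sets.

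Kdsr (chr1:106720459-106759727, minus strand), which acts right after SPT, was called lower in cKO cells in sets 1 and 3 and not in set 2. Set 1 held 29.3, 33.5 and 29.0 CPM in WT and 24.5, 25.1 and 24.5 in cKO libraries (-0.31, SE 0.0874, adjusted p = 0.00752), and the call was lost without WT replicate 2 (adjusted p = 0.0604), without a filter on low counts (0.0525) and with only these groups in the fit (0.0679). Set 3 held 27.4, 34.1 and 31.2 against 22.4, 25.7 and 24.2 CPM (-0.36, SE 0.0869, adjusted p = 0.00232), a call lost with only these groups in the fit (adjusted p = 0.0687). In set 2 the WT libraries held 23.2, 24.5 and 25.5 CPM and the cKO libraries 25.2, 25.7 and 25.6 (0.06, SE 0.0861, adjusted p = 0.66). Over all 9 WT libraries of the sets Kdsr ran from 23.2 to 34.1 CPM, while the 9 cKO libraries kept between 22.4 and 25.7.

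Lpin1 (chr12:16535669-16610966, minus strand) overlapped between genotypes on day 3 and was lower in cKO cells afterwards. On day 3 the WT libraries held 10.4, 7.4 and 7.9 CPM and the cKO libraries 10.6, 11.2 and 9.8. On day 5 they held 35.9, 12.5 and 13.4 against 8.1, 8.2 and 7.5 CPM, and on day 7 24.6, 62.5 and 38.0 against 9.6, 21.4 and 19.2. On day 8 they held 25.9, 26.5 and 21.4 against 12.8 and 12.3 CPM. The genotypes overlapped on day 3 and were separate on days 5, 7 and 8, when 11.1%, 7.09% and 13.8% of all genes lay lower in cKO cells without overlap. The log2 fold changes were 0.30 (SE 0.406), -1.37 (SE 0.399), -1.31 (SE 0.384) and -0.97 (SE 0.278), and the fold change of day 7 minus that of day 3 was -1.61 (SE 0.558). On day 5 the value without WT replicate 1, which held 35.9 CPM, was -0.70, and on day 7 it was -0.90 without WT replicate 2, which held 62.5 CPM. The same days chose the gene, and as a whole 18.3%, 15.4%, 9.5% and 18.2% of genes lay higher and without overlap in cKO cells on days 3, 5, 7 and 8, among them Ormdl3 on day 3 and Sptlc2 on the later days.

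Among the tested comparisons, Lpin1 was called lower in cKO cells in 4 of 8, with its largest well-measured differences in the BMDM sets. In set 1 the WT libraries held 58.3, 50.4 and 51.3 CPM and the cKO libraries 15.3, 16.8 and 18.2 (-1.67, SE 0.119, adjusted p = 4.09e-10). Set 2 held 24.6, 21.0 and 20.9 against 12.2, 11.9 and 12.8 CPM (-0.85, SE 0.119, adjusted p = 8.85e-06), and set 3 held 65.9, 53.0 and 44.5 against 14, 14.8 and 14.2 CPM (-1.93, SE 0.12, adjusted p = 5.12e-11). The 9 cKO libraries lay between 11.9 and 18.3 CPM, under the lowest WT library of the sets (20.9). The WT level of Lpin1 and of Sptssa was lower in set 2 than in sets 1 and 3 (73.6 against 126 and 162 CPM for Sptssa and 22.2 against 53.3 and 54.4 for Lpin1, as means), while the cKO means lay between 49.8 and 69.2 for Sptssa and 12.3 and 16.8 for Lpin1. These 3 calls, and those of Sptssa and Sptlc2 in the sets, were kept under every alternative run and on leaving out any library.

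Lpin1 in the other tested libraries was less uniform. Without antibody the WT libraries held 44.6, 98.8 and 77.1 CPM and the cKO libraries 16.2, 18 and 17.1 (-2.10, SE 0.534, adjusted p = 0.0246). The call was lost without WT replicate 2 or 3 or any 1 of the cKO libraries (adjusted p from 0.0782 to 0.111). Without the 5 libraries that stood apart the fold change was -1.40, with 1 WT library left. With control antibody the values were 28.1, 29.9 and 36.9 against 16.3, 19.5 and 17.8 CPM, not overlapping but not called (-0.83, SE 0.535, adjusted p = 0.532), and called without the 5 libraries (-0.85, adjusted p = 0.000454). With IFNAR1 antibody they were 113, 117 and 27.5 against 80.5, 22.9 and 17.2 CPM (-1.08, SE 0.512, adjusted p = 0.417). Without cKO IFNAR1 antibody replicate 1 this became -2.09 (adjusted p = 0.0381), and without all 5 it was -0.45, with 1 WT library left. Peritoneal macrophages held 32.0, 22.4 and 50.5 CPM in WT and 42.2, 23.6 and 27.2 in cKO mice (-0.18, SE 0.324, adjusted p = 0.921).

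Lpin2 (chr17:71182560-71249817, plus strand) moved less. Set 1 held 127, 85.3 and 99.3 CPM in WT and 83.1, 81.0 and 79.2 in cKO libraries (-0.36, SE 0.116, adjusted p = 0.0195), and set 3 held 127, 82.8 and 96.7 against 80.2, 75.0 and 76.5 (-0.41, SE 0.116, adjusted p = 0.0082). Both calls were lost without WT replicate 1 of the set (adjusted p = 0.201 and 0.121), the library that held 127 CPM, and in set 1 also without cKO replicate 2 or 3 (0.0518 and 0.0605). Set 2 held 119, 120.2 and 118 against 108, 95.8 and 105 CPM (-0.21, SE 0.115, adjusted p = 0.212). Peritoneal macrophages held 18.9 to 59.0 CPM of Lpin2, less than the lowest of the 73 BMDM libraries (63.3), and the kits of these experiments differed.

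Counted together, 5 of the 9 genes were called in each of sets 1, 2 and 3, where 34.6%, 21.9% and 35.9% of all genes were called. Sptssa, Lpin1 and Sptlc2 were among the 5 in every set. There were 2 calls without antibody (8.16% of all genes), 1 with control antibody (5.11% of all genes), and 0 with IFNAR1 antibody (0.698%), in IFNγ-treated cells (5.48%) and in peritoneal macrophages (1.06%). At an unadjusted p under 0.05 those last comparisons held 1, 2 and 0 of the 9, and DESeq2 called 0, 1 and 0. Whether the cKO effect differed between IFNAR1 and control antibody was tested directly, and 0 of the 9 and 0 of 17191 genes were called by edgeR, with 990 genes and 0 of the 9 at an unadjusted p under 0.05 and 0 of the 9 called by DESeq2. For Sptssa that difference was 0.28 (SE 0.214, adjusted p = 0.928).

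**Figure D3:**
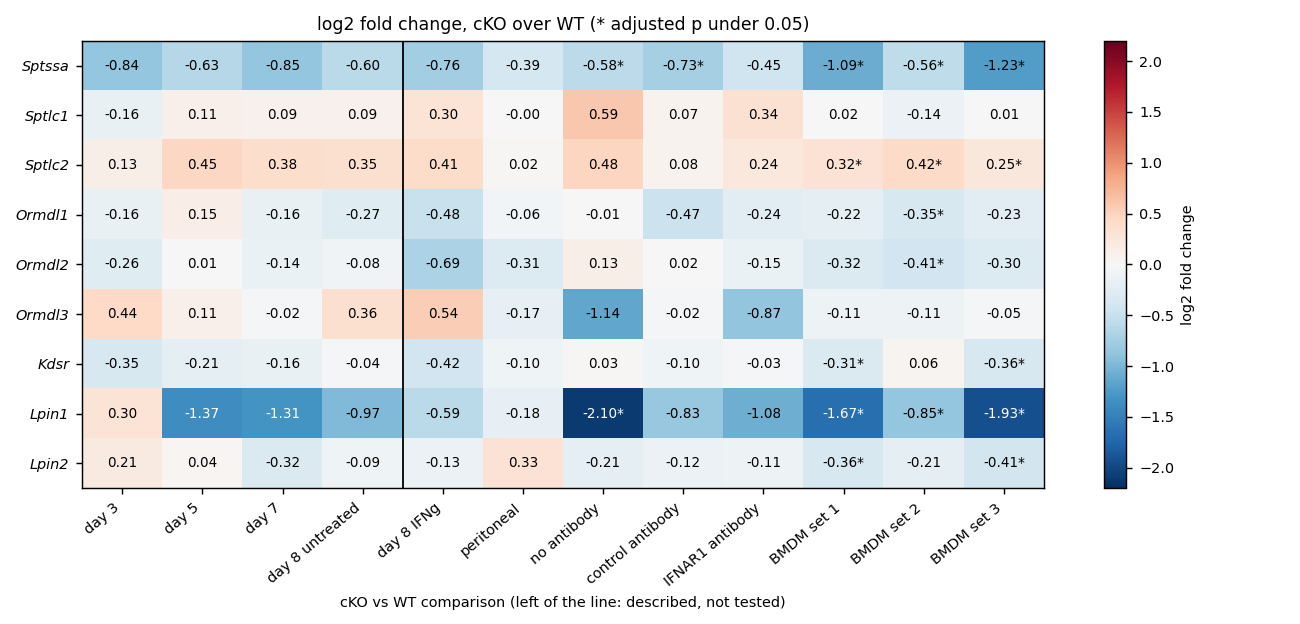
Log2 fold change of cKO over WT for the 9 genes (rows) in 12 comparisons (columns), coloured from blue (lower in cKO) to red (higher), with a star at an adjusted p under 0.05 and the described days left of the line. The rows of Sptssa and Lpin1 are blue nearly throughout, the exception being Lpin1 on day 3 (0.30), and the row of Sptlc2 holds no value below 0.

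Neutrophil, dendritic and B cell markers differed between the genotypes in the BMDM sets. Of the 8 neutrophil markers 7 were tested, and 5, 2 and 5 were called higher in cKO cells of sets 1, 2 and 3. They summed to 59.3 to 176 CPM in WT and 151 to 319 in cKO libraries of the sets, with at most 1 of the 8 at 0. In set 2 the sums overlapped, at 101 to 176 CPM in WT and 151 to 169 in cKO libraries. Dendritic markers were called higher in 4, 3 and 4 of 4 (summed 1.31 to 4.72 CPM in WT and 3.93 to 12.8 in cKO libraries), and B cell markers in 5, 2 and 3 of 6 (2.69 to 6.90 and 5.90 to 14.7). Macrophage markers were called lower in 2, 2 and 3 of 6 and higher in 1, 0 and 1. Stromal markers were called lower in 0, 1 and 0 of 5 tested and higher in 0. Of the markers of large peritoneal macrophages 3 were tested, and 1 was called higher in each set. T cell markers were too low to test. Of all genes, 17.9%, 10.1% and 17.1% were called higher and 16.7%, 11.8% and 18.8% lower. The part of other cells in the values of the 9 genes was not tested. The neutrophil markers summed to at most 1.81 CPM in the placed libraries of day 8 and 3.94 in those of the antibody experiment.

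With IFNγ, Sptssa, Kdsr and Lpin1 fell and Sptlc2 and Lpin2 rose in both genotypes, so 5 of the 9 were called in each, where 38.9% and 33.9% of all genes were called. These contrasts use the untreated day 8 libraries on which Sptssa and Lpin1 were chosen. The changes of Sptssa and Lpin1 are therefore a description, and their part in the counts of calls is no test. Sptssa fell in WT cells from 146, 147 and 150.3 to 57.4, 36.3 and 62.4 CPM (-1.51, SE 0.194), to 35.2% of the untreated level. In cKO cells it fell from 97.7 and 98.3 to 34.5 and 27 (-1.67, SE 0.242). Treated and untreated libraries did not overlap in either genotype, but the share of all genes that separate in this way was not counted.

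Kdsr fell from 25.9, 23.2 and 18.9 to 8.59, 6.62 and 8.67 CPM in WT (-1.50, SE 0.197, adjusted p = 0.000253) and from 21.9 and 22.4 to 7.27 and 5.00 in cKO cells (-1.89, SE 0.257, adjusted p = 0.000482). Sptlc1 was not called in either genotype, though its unadjusted edgeR p was under 0.05 in cKO cells. Sptlc2 rose, from 90.9, 73.1 and 76.9 to 125, 108 and 99.9 CPM in WT (0.47, SE 0.137, adjusted p = 0.0211) and from 105 and 99.9 to 138 and 155 in cKO cells (0.53, SE 0.168, adjusted p = 0.0352). The WT call of Sptlc2 was lost without untreated replicate 2 or 3 or IFNγ replicate 1 (adjusted p from 0.101 to 0.109), and the cKO call without untreated replicate 1 or 2 or IFNγ replicate 2 (0.0781 to 0.193). Ormdl2 held 10.6, 14.4 and 11.9 CPM untreated and 17.1, 23.2 and 18.3 with IFNγ in WT cells. It was not called (0.67, SE 0.306, adjusted p = 0.113), but was with the replicate number as a block (adjusted p = 0.0445), and same-numbered WT libraries deviated together here.

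The lipins went in opposite directions. Lpin1 fell from 25.9, 26.5 and 21.4 to 4.8, 4.8 and 5.9 CPM in WT cells (-2.25, SE 0.257) and from 12.8 and 12.3 to 5.5 and 2.3 in cKO cells (-1.87, SE 0.344). Lpin2 rose from 63.3, 83.4 and 66.1 to 182, 192 and 172 CPM in WT (1.36, SE 0.21, adjusted p = 0.000687) and from 65.3 and 67.8 to 116 and 216 in cKO cells (1.33, SE 0.257, adjusted p = 0.00335). The lower of the 2 treated cKO values, 116 CPM, is from the shallow replicate 1, in which 6 stromal markers summed to 345.4 CPM against 55.0 in the other treated cKO library, and their part in the value was not tested. The share of Lpin1 in the RPKM of both lipins went from 30.6% ± 3.05 to 3.47% ± 0.570 in WT cells (SD, n = 3 each). In cKO cells the shares were 18.7% and 19.9% untreated and 5.63% and 1.31% with IFNγ.

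A difference in the response to IFNγ between genotypes was not detected. The interaction was -0.16 (SE 0.303) for Sptssa, 0.38 (SE 0.425) for Lpin1, -0.39 (SE 0.317) for Kdsr and -0.03 (SE 0.326) for Lpin2. By edgeR 0 of 13075 genes were called and 1206 had an unadjusted p under 0.05, none of them among the 9, and DESeq2 called 0 of the 9. Placing the 2 conflicting cKO libraries by their titles left 0 of the 9 called in either genotype, with adjusted p from 0.0652 to 0.137 for the 5 genes in WT and from 0.947 to 0.956 in cKO cells. Placing them by their library names gave 5 calls in WT and 7 in cKO cells.

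**Figure D4:**
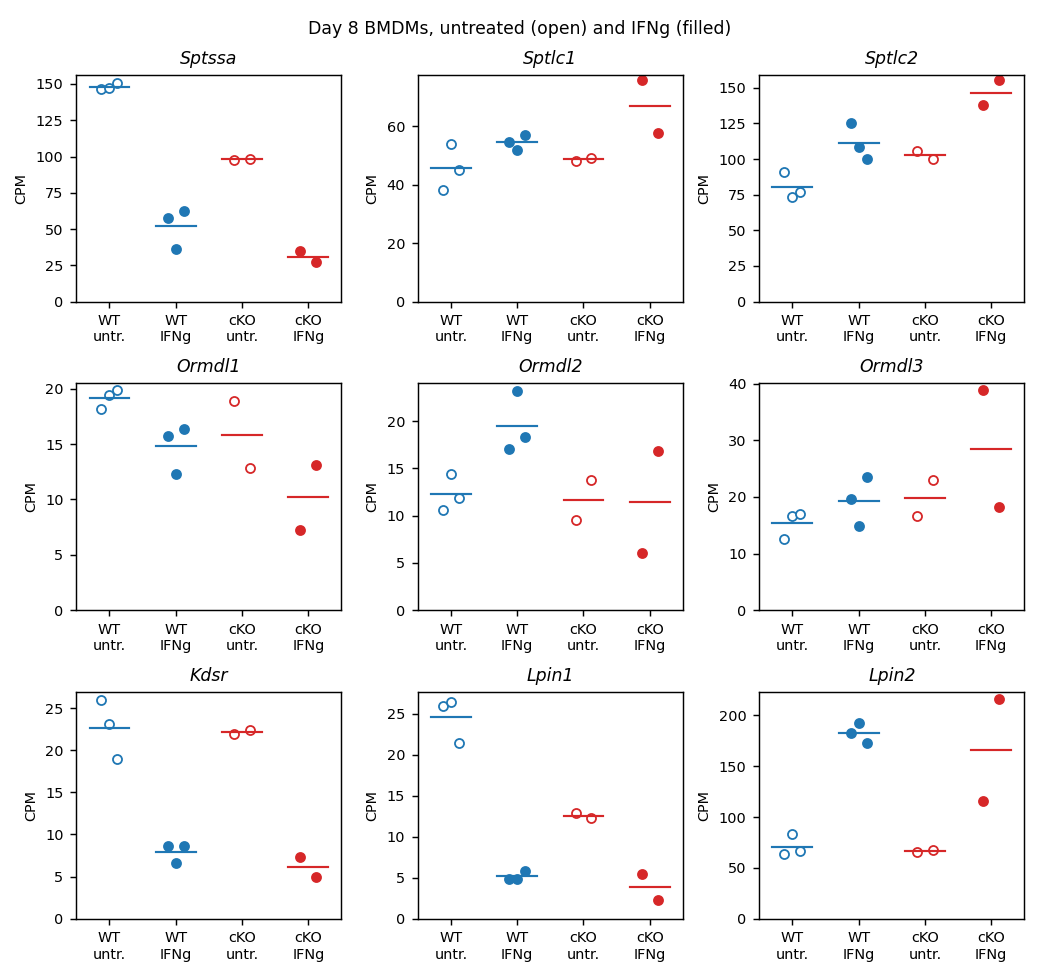
CPM of each of the 9 genes in day 8 BMDMs, one panel a gene on linear axes from 0, with open points untreated, filled points IFNγ, blue WT, red cKO and a bar at the group mean. Sptssa, Kdsr and Lpin1 drop and Lpin2 rises with IFNγ in both genotypes.

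Against control antibody, IFNAR1 antibody gave 1 call among the 9 genes, Sptssa in cKO cells. In cKO cells Sptssa went from 35.5, 36.1 and 33.3 CPM with control antibody to 61.4, 52.8 and 41.7 with IFNAR1 antibody (0.57, SE 0.153, adjusted p = 0.043, with 4.68% of all genes called). The call was lost on leaving out any library but IFNAR1 replicate 3 (adjusted p from 0.0899 to 0.204), and it held without the 5 libraries, of which cKO IFNAR1 replicate 1 is 1 (0.44, adjusted p = 0.0297). In WT cells 0 of the 9 were called (11.2% of all genes), 4 had an unadjusted p under 0.05, and DESeq2 called Lpin1 and Sptlc1.

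The 5 libraries carried their own pattern in these genes. Lpin1 was at 77.1 to 117 CPM in them and at 16.2 to 44.6 in the other 13, and Ormdl3 was at 40.6 to 137 against 18.4 to 29.1. Sptlc1 was at 22.9 to 28.3 CPM against 42.1 to 60.1, and Sptlc2 at 83.8 to 97.1 against 121 to 161, so that the 2 catalytic subunit genes were low where Lpin1 and Ormdl3 were high. Sptssa overlapped (56.8 to 80.2 against 33.3 to 62.9). The heat shock gene Hspa1b was at 1135 CPM in WT IFNAR1 replicate 2, 114 in cKO IFNAR1 replicate 1 and 26.2 in WT no antibody replicate 2, and at most 2.08 in the other 15. The part of heat shock in the levels was not tested.

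Setting control antibody against no antibody, 0 of the 9 were called in WT (9.74% of all genes) or in cKO cells (2.09%). At an unadjusted p under 0.05 there were 3 and 1, and DESeq2 called Sptlc1 and Sptlc2 in WT and 0 in cKO cells. Without the 5 libraries, Lpin1 was at -0.52 and Sptlc1 at 0.40 in WT, where 1 library without antibody was then left. Sptlc1 was called in cKO cells (0.33, adjusted p = 0.0217).

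**Figure D5:**
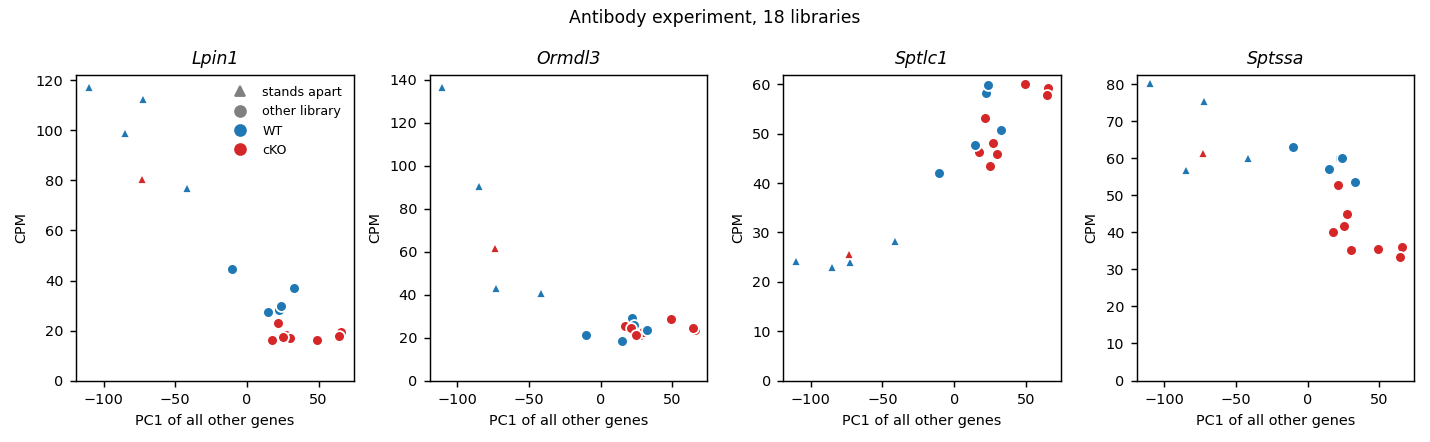
CPM of Lpin1, Ormdl3, Sptlc1 and Sptssa (linear axes) against the first principal component of all other genes in the 18 libraries of the antibody experiment, with triangles for the 5 libraries that stand apart, blue for WT and red for cKO. Lpin1 (77.1 to 117 CPM) and Ormdl3 are high and Sptlc1 is low in the triangles of either genotype.

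As WT bone marrow cells matured from day 3 to day 7, 24.5% of all genes were called. These WT libraries also entered the values on which Sptssa and Lpin1 were chosen, so their changes are given as a description. Lpin1 held 10.4, 7.4 and 7.9 CPM on day 3 and 24.6, 62.5 and 38.0 on day 7 (2.28, SE 0.404), that is 485% of its day 3 level. Sptssa held 70.02, 59.6 and 58.6 CPM on day 3 and 86.6, 115 and 99.7 on day 7 (0.68, SE 0.153). Neither gene overlapped between these days, but the share of all genes that separate in this way was not counted. The catalytic subunit genes fell, Sptlc1 from 73.7, 60.1 and 61.8 to 52.9, 49.0 and 47.0 CPM (-0.39, SE 0.11, adjusted p = 0.0178) and Sptlc2 from 145, 132 and 152 to 105, 107 and 112 (-0.41, SE 0.106, adjusted p = 0.0126). The call of Sptlc1 was lost without WT day 3 replicate 1 (adjusted p = 0.0915) and that of Sptlc2 without WT day 3 replicate 3 (0.0537).

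From day 3 to day 5, Sptlc2 was called (-0.41, SE 0.106, adjusted p = 0.0459, with 2.91% of all genes called), and the call was lost on leaving out any 1 of the 6 libraries (adjusted p from 0.0663 to 0.19). From day 5 to day 7, 0 of the 9 were called by edgeR (0.15% of all genes), 2 had an unadjusted p under 0.05 and DESeq2 called 1. Over the same days the 8 neutrophil markers fell from 1583 to 3038 CPM on day 3 to 74.1 to 131 on day 7 in WT, all 8 called, and from 2732 to 4205 to 89.9 to 276 CPM in cKO cells. Their part in the changes of the 9 genes was not tested. In cKO cells, as a description, the change from day 3 to day 7 was 0.68 for Sptssa, 0.67 for Lpin1, -0.14 for Sptlc1 and -0.16 for Sptlc2.

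The double KOs lack Sting or Mavs, adaptors that relay sensing of cytosolic DNA and RNA, or Irf7, a transcription factor of the interferon response, in addition to the H3.3 cKO. The labels do not tie them to a set of WT and cKO libraries, so batch and genotype cannot be told apart and values are given side by side without a test. Sptssa held 48.0, 47.9 and 45.5 CPM in StingKO, 42.2, 42.8 and 41.0 in MavsKO and 69.0, 82.9 and 77 in Irf7KO cells, beside 44.9 to 73.3 in the 9 cKO libraries. Lpin1 held 23.7, 22.1 and 20.98 CPM in StingKO, 11, 14.6 and 13.8 in MavsKO and 17.4, 17.2 and 15.3 in Irf7KO cells, beside 11.9 to 18.3 in cKO libraries. Irf7KO and set 3 libraries list 54146 genes, while those of sets 1 and 2, StingKO and MavsKO list 55536, and the reason was not tested. The Irf7KO values of Sptssa lay close to WT set 2 (71.1 to 77.4 CPM), which lists a different number of genes. The StingKO values of Lpin1 lay within WT set 2 (20.9 to 24.6). All double KO libraries lay under the lowest library of WT sets 1 and 3 for both genes (109 CPM for Sptssa and 44.5 for Lpin1). Ormdl1 held 7.98, 10.6 and 8.62 CPM in StingKO cells and 12.8 to 19.1 in the other 24 libraries of the experiment, a log2 difference of -0.66 to -0.64 from the cKO sets. Lpin2 held 106, 103 and 107 CPM in MavsKO cells, within the range of cKO set 2 (95.8 to 108), and 74.7, 72.9 and 75.0 in Irf7KO cells, close to cKO set 3 (75.0 to 80.2).

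The genes whose pattern was most like that of Sptssa over 79 libraries, each centred on its experiment, were Aaed1 (r = 0.886), Echs1 (0.869), Camk1 (0.858), Stard4 (0.837) and Pcyt2 (0.835), of 11267 genes compared. Stard4 carries cholesterol between membranes, and Pcyt2 makes CDP-ethanolamine for phosphatidylethanolamine. Those most like Lpin1 were Fam214a (0.905), Zfp652 (0.901), Ypel2 (0.898), Ttc3 (0.888) and Sec14l1 (0.866). Within the 9, the correlation of Sptssa was 0.789 with Lpin1 and 0.686 with Kdsr, that of Sptlc1 with Sptlc2 was 0.693, and that of Sptlc2 with Lpin1 was -0.786. The points share depth, batch and the 5 libraries above, and these values are descriptions.

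On the chromosome, the coding genes next to Sptssa are Npas3 and Egln3 on one side (441.5 kb to Egln3) and Eapp (13.8 kb) and Snx6 (89.8 kb) on the other. Egln3, a prolyl hydroxylase of hypoxia-inducible factor, was called lower in cKO cells in 3 of 8 comparisons, the sets (-2.10, -1.09 and -2.52), and was at 0.86 with IFNAR1 antibody, not called. Eapp (-0.28) and Snx6 (-0.20) were each called lower in 1 of 8, in set 3. Beside Lpin1, Trib2, 718.7 kb away, was called higher in 2 of 7 comparisons (1.86 and 1.58, sets 1 and 3), and Fam84a, Ntsr2 and Greb1 were too low to test.

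Beyond the SPT step, 45 further sphingolipid genes were listed, of which 39 were tested in the BMDM sets. In sets 1, 2 and 3, 11, 17 and 11 were called lower and 7, 4 and 7 higher in cKO cells, beside 16.7%, 11.8% and 18.8% of all genes called lower and 17.9%, 10.1% and 17.1% higher. The median fold changes were -0.03, -0.25 and -0.06 beside -0.03, -0.01 and -0.06 for all genes. Sgpp1, which removes the phosphate of sphingosine 1-phosphate, was called lower in 5 of 8 comparisons (-0.65 to -0.13), and Sgpl1, the lyase that ends the pathway, in 3. The acid ceramidase gene Asah1, the ceramide synthase gene Cers4, Gltp and Galc were also called lower in 3 of 8, as was Smpd3, whose fold changes ran from -3.46 to 1.72. B4galt5, which makes lactosylceramide, was called higher in 4 of 8 and St3gal5, the GM3 synthase, in 3. In the other comparisons, 3 were called lower and 3 higher without antibody, 1 and 1 with control antibody, 0 and 2 of 34 in IFNγ-treated cells, and 0 in peritoneal macrophages and with IFNAR1 antibody. Of all genes, 8.16%, 5.11%, 5.48%, 1.06% and 0.698% were called in these comparisons, in the order given.

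With IFNγ, 9 of these 34 were called lower and 7 higher in WT cells, and 8 lower and 6 higher in cKO cells. Of all genes, 38.9% and 33.9% were called there in either direction. St3gal5 rose by 1.84 (SE 0.169, adjusted p = 2.67e-05) in WT and 1.48 (SE 0.204, adjusted p = 0.000523) in cKO cells, and Sgpp1 fell by 0.42 and 0.64 on the log2 scale (adjusted p = 0.0305 and 0.0144). From day 3 to day 7 in WT cells, 6 of 39 were called lower and 8 higher, beside 24.5% of all genes called. Galc (1.02) and Sgpp1 (0.79) were among those called higher, and St3gal5 (-1.10) among those called lower.

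Of 44 further glycerolipid genes and lipin partners, 42 were tested in the sets. In sets 1, 2 and 3, 10, 8 and 13 were called lower and 6, 4 and 7 higher, beside the shares of all genes given above for the sets. The medians were -0.11, -0.14 and -0.13 beside -0.03, -0.01 and -0.06 for all genes. Pcyt2 was called lower in 4 of 8 comparisons (-0.96 to -0.12), and Pcyt1a of phosphatidylcholine synthesis, Ptdss2 of phosphatidylserine synthesis and Agpat3 in 3. The acyltransferase genes of triglyceride synthesis Dgat2 (3 of 7) and Mogat2 (3 of 3 tested, 1.54 to 1.66) were called higher. Elsewhere the calls were 2 lower and 1 higher without antibody, 1 lower with control antibody, 1 lower in IFNγ-treated cells, 1 higher in peritoneal macrophages and 0 with IFNAR1 antibody. In the same order, 8.16%, 5.11%, 5.48%, 1.06% and 0.698% of all genes were called. With IFNγ, 8 of 39 were called lower and 14 higher in WT cells, and 6 lower and 12 higher in cKO cells. Of all genes, 38.9% and 33.9% were called there in either direction. The medians were 0.35 and 0.36 beside -0.01 and -0.02 for all genes. Pcyt2 fell with IFNγ, with log2 changes of -1.298 and -1.69 (adjusted p = 0.000136 and 0.000185). From day 3 to day 7 in WT cells 13 were called lower and 8 higher, beside 24.5% of all genes called. Dgat2 (-3.16) and Mogat2 (-4.35) were among those called lower.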

How the data were processed

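RNA-seq libraries of BMDMs were prepared by the authors from rRNA-depleted RNA (NEBNext Ultra II) and those of peritoneal macrophages from ultra-low input RNA (SMART-Seq v4). Reads were trimmed with Cutadapt and aligned with STAR to mm10, which is GRCm38. The deposited values are STAR raw counts per gene, without normalization, and the column without strand was used because reads split evenly between strands. Unmapped, multimapping, ambiguous and intergenic reads were left out. The authors' own tests used RSEM estimates and SARTools, not used here.

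Genes were filtered with filterByExpr (smallest count 10, smallest total 15), scaled by TMM and tested in R 4.3.3 by quasi-likelihood F tests (edgeR 4.0.16, with limma 3.58.1), all groups of an experiment in 1 model, and called at a Benjamini-Hochberg adjusted p under 0.05. SE belongs to the log2 fold change, and CPM is TMM-scaled. The test was tried on counts simulated for 5 of the comparisons, with 200 genes changed 2-fold, all drawn from genes above 10 CPM. Smaller changes and changes of genes at lower levels were not simulated. For cKO against WT the test recovered 98% in BMDM set 1, 60.5% with control antibody and 28% in peritoneal macrophages. It recovered 73% for day 7 against day 3 and 59% for IFNγ, both in WT cells. A lack of calls in peritoneal macrophages is therefore weak evidence of no change. The fitted depth was 3614967 to 45581528 counts. The lowest chi-square per degree of freedom between libraries of the same group was 4.47, so none was counted as a duplicate within its group. Libraries of different groups were not compared in this way.

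The members and gene lists were chosen with earlier results of these data known. Named genes are the 9 members, the 5 genes most correlated with Sptssa and with Lpin1 (log2 CPM, prior count 2), their nearest coding neighbours, up to 10 genes a list called in the same direction in at least 3 of 8 cKO against WT comparisons, and H3f3a, H3f3b, Lyz2 and Ifi44. Some genes that this rule names are not reported here. Heat shock genes were added after the values were seen. Alternatives were DESeq2 1.42.0, its scaling, no filter or a mean of 1 CPM, a stranded column, only the groups compared, a replicate block, each library left out, and both placements of the 2 conflicting libraries. Leaving out 5 antibody libraries (first principal component under -40) was chosen after seeing the data. Same-numbered libraries deviated together (every r over 0.1) for IFNγ in WT cells (0.306 to 0.43), cKO against WT on day 3 (0.126 to 0.419) and day 7 (0.153 to 0.467), day 7 against days 3 and 5 in cKO cells (0.138 to 0.415 and 0.233 to 0.492), control against no antibody in WT cells (0.145 to 0.284) and peritoneal macrophages (0.144 to 0.194).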

Additional observations from a re-analysis of the deposited data

Results flagged for a closer look

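Sptlc1 and Ormdl3 differed from WT in opposite directions in cKO cells of different experiments, with no overlap between genotypes in each. Sptlc1 was lower in every cKO library of BMDM set 2 (log2 fold change -0.14) and higher in every cKO library of day 8 with IFNγ (0.30) and of the arm without antibody (0.59). Ormdl3 was lower in every cKO library of BMDM set 2 (-0.11) and higher in every cKO library of day 3 (0.44). Of all genes, 24.5% lay lower without overlap in set 2, and 15.5%, 20.2% and 18.3% lay higher with IFNγ, without antibody and on day 3. None of the tested ones among these was called, and the difference between experiments was not tested. The value of Sptlc1 without antibody includes 2 WT libraries that stood apart, in which Sptlc1 was at 22.9 and 28.3 CPM.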

How the results depend on the processing

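Under alternatives other than leaving out a library, the number of the 9 genes called stayed within 1.5 times except as follows. With DESeq2 it went from 0 to 1 for cKO against WT with IFNγ, from 0 to 2 for IFNAR1 against control antibody in WT cells and for control against no antibody in WT cells, from 1 to 3 for day 5 against day 3 and from 0 to 1 for day 7 against day 5. Without a filter on low counts it was 1 (from 0) for cKO against WT with IFNγ, 1 (from 2) without antibody, 3 (from 5) in set 2, 0 (from 1) for IFNAR1 against control antibody in cKO cells and 0 (from 1) for day 5 against day 3. With only the groups compared it was 2 (from 1) with control antibody, 3 (from 5) in sets 1 and 3, 2 (from 5) for IFNγ in cKO cells, 0 (from 1) for IFNAR1 against control antibody in cKO cells, 3 and 1 (from 0) for control against no antibody in WT and cKO cells, and 2 (from 4) for day 7 against day 3. With the stranded column IFNAR1 against control antibody in cKO cells had 0 (from 1). By titles IFNγ had 0 calls in each genotype, and by library names cKO against WT with IFNγ had 1. Without the 5 antibody libraries, an alternative chosen after seeing the data, there were 3 calls with control antibody and 1 for control against no antibody in cKO cells. Calls are not counted where it left 1 library in a group. The causes were not tested. With each library left out in turn the counts were 0 to 0 in peritoneal macrophages, 0 to 3 with IFNγ, 0 to 3 without antibody, 0 to 1 with control and with IFNAR1 antibody, 4 to 6, 3 to 4 and 5 to 6 in sets 1, 2 and 3, 4 to 5 and 4 to 7 for IFNγ in WT and cKO cells, 0 to 5 and 0 to 1 for IFNAR1 against control antibody, 0 to 2 and 0 to 0 for control against no antibody, 0 to 0, 0 to 1 and 3 to 4 for day 5 against 3, 7 against 5 and 7 against 3, and 0 to 1 and 0 to 0 for the IFNγ and IFNAR1 interactions.

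With the replicate number as a block, IFNγ in WT cells had 6 calls (Ormdl2 was added, adjusted p = 0.0445) and in cKO cells 4 (Sptlc2, adjusted p = 0.0515, where the numbers do not pair the libraries), and no other call changed.

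Signs reversed for these values, in log2. By titles, cKO against WT with IFNγ gave 0.027 for Sptssa, 0.49 for Kdsr and 0.11 for Lpin1, and the IFNγ interaction gave 1.02 for Sptssa, -0.28 for Sptlc2, 0.22 for Ormdl1 and 0.97 for Kdsr. With the stranded column, Ormdl2 was -0.21 with control antibody, 0.19 for IFNAR1 against control antibody in cKO cells, -0.20 for control against no antibody in cKO cells and 0.12 for the IFNAR1 interaction, and Ormdl3 was 0.079 in set 3. Without the 5 libraries, no antibody gave -0.12 for Ormdl2 and 0.10 for Ormdl3, IFNAR1 antibody gave 0.32 for Ormdl3 and the IFNAR1 interaction 0.32. IFNAR1 against control antibody gave -0.016 for Sptssa, 0.17 for Ormdl1, -0.51 for Ormdl3 and -0.19 for Lpin1 in WT and -0.19 for Ormdl3 in cKO cells, and control against no antibody in WT cells gave -0.11 for Ormdl2 and 0.28 for Ormdl3.
With 1 library left out, the lowest and highest values of the results that reversed were, for cKO against WT, -0.21 and 0.16 for Ormdl1 and -0.47 and 0.17 for Lpin1 in peritoneal macrophages, -0.066 and 0.98 for Ormdl3, -1.16 and 0.066 for Lpin1 and -0.67 and 0.27 for Lpin2 with IFNγ, and -1.53 and 0.22 for Ormdl3 with IFNAR1 antibody. For IFNγ in cKO cells they were -0.95 and 0.56 for Ormdl2 and -0.082 and 0.96 for Ormdl3, for IFNAR1 against control antibody in cKO cells -0.17 and 0.75 for Ormdl3, and for Kdsr in WT cells -0.15 and 0.15 for day 7 against 5 and -0.073 and 0.22 for day 7 against 3. For the interactions they were -0.40 and 0.63 for Ormdl3, -0.17 and 1.03 for Lpin1 and -0.58 and 0.39 for Lpin2 with IFNγ, and -1.50 and 0.25 for Ormdl3 with IFNAR1 antibody.
A further 97 uncalled values changed sign by less than 1 SE and are not listed. Day 8 descriptions with the libraries placed by titles were -0.99 for Sptssa and -1.39 for Lpin1. The day 8 values rest on 2 cKO libraries a group, 1 of them with 3614967 counts, and on where the conflicting libraries are placed.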

Other observations

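The labels of 2 day 8 cKO samples contradict each other on whether IFNγ was given, and these samples entered no comparison. The library titled as treated and named as untreated held 96.2 CPM of Sptssa, 8.9 of Lpin1, 20.5 of Kdsr, 57.7 of Lpin2 and 99.1 of Sptlc2. The library titled as untreated and named as treated held 27.7 CPM of Sptssa, 2.9 of Lpin1, 4.39 of Kdsr, 203 of Lpin2 and 140.4 of Sptlc2. For Sptssa, Kdsr, Lpin2 and Sptlc2 each library lay nearer the placed cKO libraries of its library name than those of its title. The Lpin1 value of 8.9 CPM lay between the untreated and the treated cKO libraries. Which label is right was not tested.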
